A study of Mus musculus with 2 samples.

Results

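The unfolded protein and integrated stress response is represented here by 38 genes, which code for the sensors of the endoplasmic reticulum (ER), its chaperones and degradation factors, and the transcription factors, effectors and amino acid genes linked to Atf4. The genes were found by name in the scanner output, and they took 55 of the 43020 spots that are not controls. These spots carry 46 of the 39429 distinct probes and stand for 38 of 31710 genes. Of the 38 genes, 37 had a probe well above background on both arrays and are called measured. The remaining gene was Chac1, whose enzyme degrades glutathione, which no probe read well above background.

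RNA came from the parental line Ba/F3, mouse pro-B cells that depend on interleukin-3 (IL-3), and from BaF/3 (#BEB1), its variant that binds the hormone-like peptide Ecrg4. BaF/3 (#BEB1) was a clone from Ba/F3 cells infected with a retroviral cDNA library of CG4, a rat oligodendrocyte precursor line, and it had gone through repeated sorting on an Ecrg4 fusion protein. Both were kept in the same IL-3 medium, and no drug or other inducer of ER stress is given for either. There was 1 Agilent 1-colour array per cell line, so no difference has a replicate check, no test can be made, and clone, culture and array cannot be told apart.

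The deposited sources disagree on which array belongs to which cell line. In the authors' table, the parental column had a Pearson correlation of 0.999998 across probes with the array deposited as BaF/3 (#BEB1), and its column for BaF/3 (#BEB1) had one of 0.999996 with the array deposited as parental. Array A is BaF/3 (#BEB1) by the table and parental by the scanner output, and array B is the reverse. A level is the log2 of the processed signal over the 75th percentile of its array. Every difference below is the log2 level on array A minus that on array B, so each sign turns with the assignment, which was not settled here. Olr1, the gene of the Ecrg4 receptor LOX-1 that was cloned from BaF/3 (#BEB1), stood at 3.11 on array A and −1.90 on array B, a difference of 5.01. From this microarray experiment the study describes far more LOX-1 RNA in BaF/3 (#BEB1) than in its parental line, which is the direction of the table and the opposite of the scanner output.

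Proteins that enter the ER are folded by chaperones and by enzymes that form disulphide bonds. When unfolded protein collects there, the sensors Ern1, Eif2ak3 and Atf6 raise the output of chaperone and degradation genes, which is the unfolded protein response. Eif2ak3 and related kinases also phosphorylate the translation factor eIF2α, which lowers protein synthesis in general but favours translation of Atf4, and Atf4 then drives genes for amino acid synthesis, uptake and stress effectors in what is called the integrated stress response. Cells that make and secrete much protein, such as plasma cells of the B lineage, are known for a strong unfolded protein response.

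The DNA elements read by these factors are shown first, because the chaperone genes and the Atf4-linked genes differ in them. The ER stress response element (ERSE), read by Atf6 and Xbp1 with the factor NF-Y, was searched as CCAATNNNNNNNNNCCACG. A shorter form, ERSE-II, was searched as ATTGGNCCACG, the Xbp1 element as TGACGTGG, and the Atf4 element as TGATGNAA, all on both strands. The windows were RefSeq promoters of GRCm38.p6 from 250 bases before to 50 bases after each start, which are 300 bases long, and 35 of the 38 genes had such a window, 2 of them more than 1. The 250 upstream bases are printed for 6 genes, each 5′ to 3′ on the strand of the gene, with matched elements in capitals. Hspa5 (chr2:34771840-34772089, plus strand), Hsp90b1 (chr10:86705445-86705694, minus strand) and Calr (chr8:84846932-84847181, minus strand) are shown as chaperone genes with the same element and unlike differences between the arrays. Herpud1 (chr8:94386179-94386428, plus strand) holds an element of each kind. Nupr1 (chr7:126625471-126625720, minus strand) and Asns (chr6:7693210-7693459, minus strand) are shown as Atf4-linked genes.
Hspa5: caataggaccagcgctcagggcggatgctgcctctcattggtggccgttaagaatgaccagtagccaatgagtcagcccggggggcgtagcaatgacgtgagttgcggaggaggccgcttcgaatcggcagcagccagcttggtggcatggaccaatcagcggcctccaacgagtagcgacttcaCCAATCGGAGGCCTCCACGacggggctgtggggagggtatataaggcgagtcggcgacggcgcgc
Hsp90b1: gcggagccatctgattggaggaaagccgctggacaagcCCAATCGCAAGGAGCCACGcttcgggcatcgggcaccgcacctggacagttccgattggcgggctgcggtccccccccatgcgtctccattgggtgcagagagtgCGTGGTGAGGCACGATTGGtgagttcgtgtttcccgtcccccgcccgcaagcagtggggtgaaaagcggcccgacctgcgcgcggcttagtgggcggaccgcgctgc
Calr: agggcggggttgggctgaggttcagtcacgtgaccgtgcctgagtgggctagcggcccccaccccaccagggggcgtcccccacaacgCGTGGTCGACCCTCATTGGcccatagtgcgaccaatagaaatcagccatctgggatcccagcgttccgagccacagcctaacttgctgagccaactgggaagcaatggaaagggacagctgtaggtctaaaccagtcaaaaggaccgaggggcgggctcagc
Herpud1: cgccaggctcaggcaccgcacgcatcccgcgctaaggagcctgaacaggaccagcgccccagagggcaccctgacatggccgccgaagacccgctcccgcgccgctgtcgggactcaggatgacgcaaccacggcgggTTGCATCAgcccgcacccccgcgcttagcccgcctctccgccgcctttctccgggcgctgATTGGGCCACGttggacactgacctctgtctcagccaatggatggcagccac
Nupr1: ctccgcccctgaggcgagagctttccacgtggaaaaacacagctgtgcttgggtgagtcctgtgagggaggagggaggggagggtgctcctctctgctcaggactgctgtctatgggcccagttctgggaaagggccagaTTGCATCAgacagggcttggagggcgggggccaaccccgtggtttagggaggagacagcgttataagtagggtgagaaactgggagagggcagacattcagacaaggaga
Asns: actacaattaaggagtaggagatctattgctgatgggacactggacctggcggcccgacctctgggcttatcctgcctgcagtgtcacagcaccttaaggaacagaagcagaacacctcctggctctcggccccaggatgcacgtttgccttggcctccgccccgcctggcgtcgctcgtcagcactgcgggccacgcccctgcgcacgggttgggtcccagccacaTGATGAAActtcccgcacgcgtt

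In Hspa5 the ERSE lies at positions −65 to −47, counted from the start with no position 0. Hsp90b1 holds 2 copies, at −212 to −194 and, on the opposite strand, at −107 to −89. The Calr copy at −162 to −144 is also on the opposite strand, so that the capitals there begin with the complement of the CCACG end. Herpud1 holds an Atf4 element at −112 to −105 on the opposite strand and an ERSE-II at −52 to −42, Nupr1 holds an Atf4 element at −110 to −103 on the opposite strand, and Asns holds one at −23 to −16.

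The ERSE was found in 8 of the 35 genes with a window (22.9%), which were Hspa5, Hsp90b1, Calr, Canx, Dnajc3, Pdia6, Creld2 and Syvn1, and in 0.137% of the 27025 genes with a window in the same table. ERSE-II was found in Dnajb11 and Herpud1, against 0.0444% of all genes. The Atf4 element was found in 6 of the 35 (17.1%), which were Asns, Chac1, Herpud1, Nupr1, Slc7a11 and Trib3, against 4.51% of all genes. The Xbp1 element was found in 0 of the 35 and in 0.714% of all genes. Herpud1 was the single gene with elements of both kinds. A match of letters is a description of the window and does not show that a factor binds there. Only exact letters within the window were searched, so a missing match does not show that a gene lacks an element.

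On array A 49.4% of the probes were well above background and on array B 49.9%, and no spot was saturated. Levels of different genes are not compared, since probes differ in brightness for the same amount of RNA. Over all 14816 measured genes the median difference was −0.02, with 570 genes (3.85%) higher on array A by 2-fold or more and 1082 (7.30%) higher on array B by as much. The IL-3 receptor genes were all measured, with differences of 0.40 for Il3ra, −1.86 for Csf2rb and −1.60 for Csf2rb2 and summed signals of 123 times the 75th percentile on array A and 281 times on array B. Of 10 B-lineage markers 3 were measured and stood lower on array A, with differences of −2.30 for Cd79b, −1.39 for Vpreb1 and −1.38 for Vpreb3, with summed signals of 0.418 and 1.67, while Pax5, Ebf1, Rag1 and Rag2 gave no signal well above background on array A or B. Of 8 neutrophil markers 6 were measured, with a median difference of −3.59 and a summed signal of 0.765 times the 75th percentile on array A and 23.3 times on array B. Of 7 erythroid markers 4 were measured, with summed signals of 9.53 and 23.9, and of 8 mast cell and basophil markers 2 were measured, with 11.1 and 34.9. For 2 other sets the summed signal was slightly higher on array A. Of 8 macrophage markers 3 were measured, with sums of 1.71 and 1.36 and a median difference of −0.46. Of 6 T cell markers 3 were measured, with sums of 4.18 and 3.83 and a median difference of 0.19. These markers were read on the same arrays as the stress genes, and their part in the differences below was not tested. In bulk RNA, fewer cells of a type and less RNA per cell cannot be told apart.

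Of the 37 measured stress genes, 8 (21.6%) were higher on array A by 2-fold or more, beside 3.85% of all measured genes, and 1 (2.70%) was higher on array B by as much, beside 7.30%. The stress genes were chosen with earlier results of these data known, so the shares and ranks here are a description and not an independent check. The 8 were Nupr1, Atf6, Ddit3, Hspa5, Ppp1r15a, Sel1l, Xbp1 and Manf, and the gene higher on array B was Psph. At 3-fold the counts were 4, beside 1.05% of all measured genes, and 0, beside 2.25%. The differences ran from −1.29 to 2.16 with a median of 0.45, and 31 of the 37 were above 0, beside 48.7% of all measured genes. By rank among all measured genes, 14 stress genes were above percentile 90 and 1 was below percentile 10. Feature Extraction estimates an error for each spot, which came to 0.14 to 0.21 for a difference, and 23 genes were higher on array A and 2 were higher on array B by more than 2 times that error, the latter being Psph and Pdia4, beside 21.5% and 24.8% of all measured genes. This error was 0.20 to 0.21 for genes read by 1 usable probe and 0.14 to 0.15 for genes averaged over 2. Within each kind it hardly changed with signal, so 2 times the error is nearly a fixed cutoff, lower for genes with 2 probes. For Creld2 the error was 0.20, beside an SD of 0.06 between the differences of its 10 spots. The error covers the reading of the array and not the differences between cultures.

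**Figure D1:**
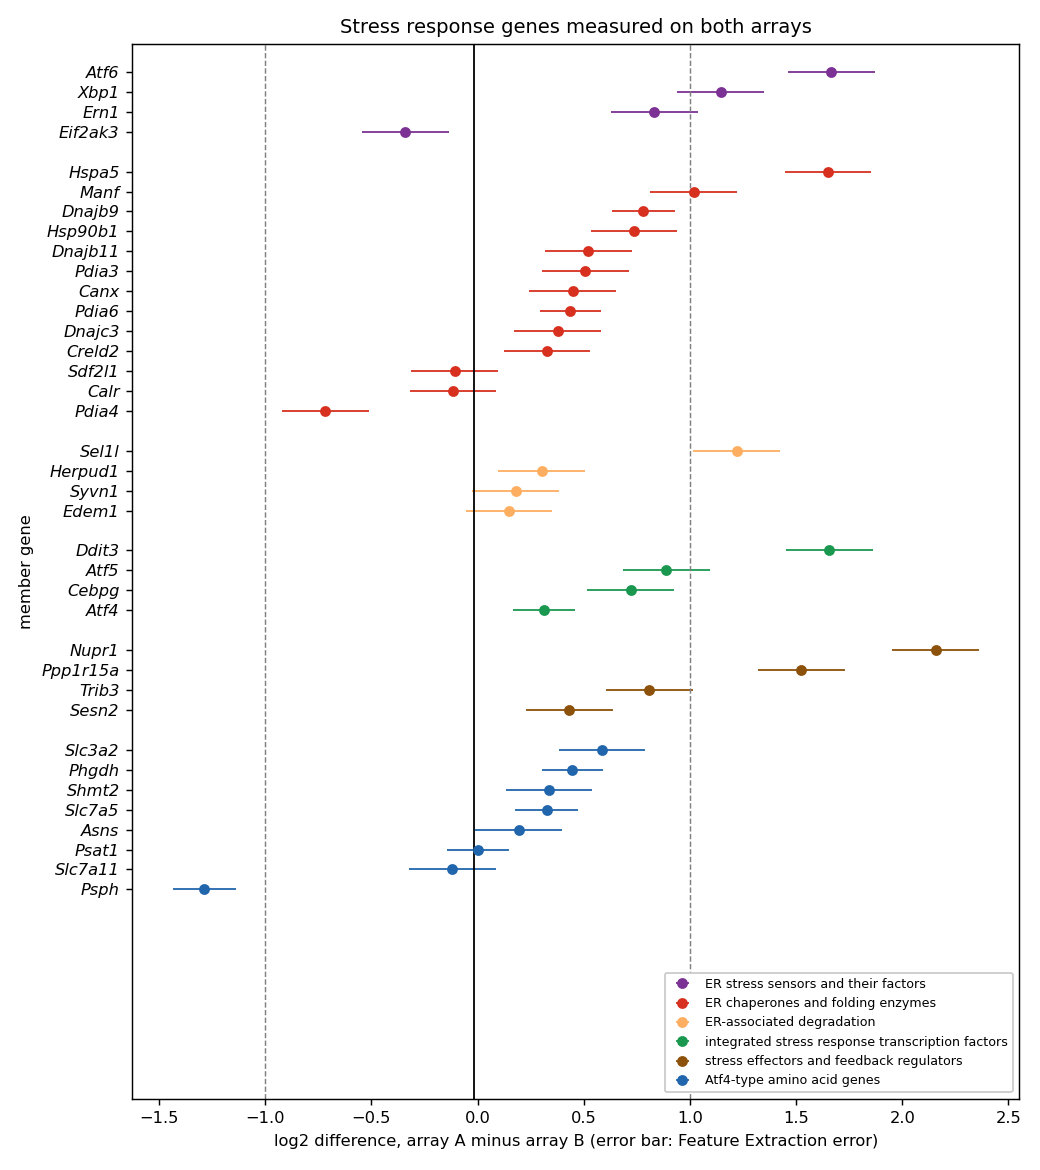
Points are the log2 differences of the 37 measured genes, array A minus array B (x axis), grouped and coloured by role, with bars of 1 Feature Extraction error on either side. The solid line is the median of all measured genes at −0.02 and the dashed lines mark 2-fold; Nupr1 is farthest right at 2.16 and Psph farthest left at −1.29.

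Of the 4 sensors and factors that open the response, 3 were higher on array A. Atf6, a membrane-bound transcription factor that is released by cleavage, stood at −0.02 on array A and −1.68 on array B, a difference of 1.67 (3.17-fold, percentile 99.1). Its probe lies at chr1:172635311-172635370 (mm9, minus strand). Xbp1, the factor whose messenger is spliced by Ern1, stood at 5.34 and 4.20, a difference of 1.15 (2.21-fold), from a probe at chr11:5425816-5425875 (mm9, plus strand). The array value is of Xbp1 RNA as this probe reads it, and splicing was not analysed here. Ern1, the kinase and endonuclease itself, stood at −0.21 and −1.04, a difference of 0.83, short of 2-fold. Eif2ak3, the eIF2α kinase of the ER, stood lower on array A, at −1.45 against −1.11, a difference of −0.34 that was less than 2 times its software error of 0.20. The median over the 4 genes was 0.99.

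All 13 chaperones and folding enzymes were measured, with a median difference of 0.45 and a range from −0.72 to 1.65. Of these, 10 were above 0, 2 reached 2-fold towards array A and 0 towards array B, beside 48.7%, 3.85% and 7.30% of all measured genes. Hspa5, which codes for BiP, the main chaperone of the ER lumen and the protein that holds the sensors inactive, had a processed signal of 121765 on array A and 27837 on array B. After scaling it stood at 6.34 and 4.69, a difference of 1.65 (3.14-fold, percentile 99.1), from a probe at chr2:34631913-34631972 (mm9, plus strand). Manf, a small ER protein that is secreted under stress, stood at 3.90 and 2.88, a difference of 1.02, at the edge of 2-fold.

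The co-chaperones that work with BiP were higher on array A, though Dnajb9, Dnajb11 and Dnajc3 did not reach 2-fold at this scaling. Dnajb9 stood at 0.04 and −0.74 and was read by 2 probes with differences of 0.75 and 0.81. Dnajb11 stood at 3.46 and 2.94, a difference of 0.52, from the brighter of its probes, while its other probe was dim on both arrays. Dnajc3, which also restrains Eif2ak3, stood at −0.81 and −1.18, a difference of 0.38. Sdf2l1, a partner of Dnajb11, stood at 1.44 and 1.55, a difference of −0.11 that is smaller than its software error. This difference turned to 0.18 with scaling to the median of each array, a signal near background. Hsp90b1, the ER member of the Hsp90 family, stood at 5.09 and 4.35, a difference of 0.74.

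The lectin chaperones Calr and Canx bind the same sugar chains but gave unlike values. Calr, the soluble form, stood at 4.99 on array A and 5.11 on array B, a difference of −0.12, or 0.18 with scaling to the median. Canx, the membrane-bound form, stood at 4.79 and 4.34, a difference of 0.45. The disulphide isomerases also spread widely, on either side of 0. Pdia3, which acts with the lectin chaperones, stood at 2.89 and 2.38, a difference of 0.51. Pdia4 stood at 0.15 and 0.87, a difference of −0.72, the lowest of the chaperone group. Pdia6 stood at 3.25 and 2.81 over 2 probes with differences of 0.21 and 0.66, the widest range between probes among the 7 genes read by more than 1 usable probe. For Creld2, an ER stress-inducible protein, the probe was printed at 10 spots with means of 3.59 and 3.27, and the difference had a mean of 0.33 with an SD of 0.06 between spots and a range from 0.17 to 0.38. This spread is technical, within 1 pair of arrays.

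All 4 genes of ER-associated degradation, the route by which misfolded protein is sent to the proteasome, were above 0, with a median of 0.24. Sel1l, the adaptor of the membrane complex, stood at 1.50 and 0.28, a difference of 1.22 (2.33-fold, percentile 97.9), from a probe at chr12:93044963-93045022 (mm9, minus strand). Syvn1, the ubiquitin ligase bound to Sel1l in that complex, stood at 3.40 and 3.23, a difference of 0.18. The difference of Syvn1 was below its software error, and the partners of the complex gave unlike values. With a dim probe tied to Syvn1 by an older symbol averaged in, the difference of Syvn1 was −0.39. That probe had processed signals of 39.1 on array A and 54.5 on array B, near background, against 15944 and 10103 for the member probe. Herpud1, which joins the same complex, stood at 3.82 and 3.52, a difference of 0.30. Edem1, which marks glycoproteins for degradation, stood at 1.58 and 1.43, a difference of 0.15.

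The transcription factors of the integrated stress response were all above 0, with a median of 0.80. Atf4, which is controlled mainly by translation, was read by 2 probes, which stood at 7.58 and 7.30 and at 2.68 and 2.33, with differences of 0.28 and 0.35. Ddit3, which codes for CHOP and is linked to cell death under lasting stress, stood at 3.18 on array A and 1.52 on array B, a difference of 1.66 (3.15-fold, percentile 99.1). Its probe was placed at chr10:126732518-126732821 (mm9, plus strand). Atf5, a relative of Atf4, stood at 7.08 and 6.19, a difference of 0.89, and Cebpg, a partner of Atf4 on DNA, stood at 1.41 and 0.68, a difference of 0.72.

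The effectors and feedback regulators had the highest median of the 6 role groups, 1.17 over the 4 measured genes. Nupr1, a small nuclear protein made under stress, had a processed signal of 47391 on array A and 7621 on array B. After scaling it stood at 4.98 and 2.82, a difference of 2.16 (4.46-fold, percentile 99.5), from a probe at chr7:133766978-133767037 (mm9, minus strand). This was the widest difference of the 37 genes. Ppp1r15a, which codes for GADD34 and directs the phosphatase that reverses eIF2α phosphorylation, stood at 5.25 and 3.72, a difference of 1.53 (2.88-fold, percentile 98.9), from a probe at chr7:52778320-52778379 (mm9, minus strand). Trib3, a pseudokinase that dampens Atf4 and CHOP, stood at 6.50 and 5.69, a difference of 0.81. Sesn2, which restrains mTORC1, stood at 2.57 and 2.14, a difference of 0.43. Chac1 had processed signals of 7.55 and 6.03, not well above background, and gets no difference.

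The Atf4-type amino acid genes had a median of 0.26 over 8 measured genes and a range from −1.29 to 0.59. None reached 2-fold towards array A (0 of 8) and 1 did so towards array B, beside 3.85% and 7.30% of all measured genes. With 8 genes, such counts cannot be set apart from those shares. The genes of serine synthesis gave unlike values. Phgdh, the enzyme that opens the route, stood at 5.26 and 4.81, with probe differences of 0.43 and 0.46. Psat1, the next enzyme, stood at 2.97 and 2.96, with probe differences of −0.05 and 0.05. Psph, the enzyme that closes it, stood at −2.56 on array A and −1.27 on array B, a difference of −1.29 (2.44-fold lower on array A, percentile 3.98). Both Psph probes, at chr5:130271441-130271500 and chr5:130272308-130272367 (mm9, minus strand), gave this direction, with −1.33 and −1.25. Shmt2, which passes serine into mitochondrial folate metabolism, stood at 4.44 and 4.11, a difference of 0.34.

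Asns, asparagine synthetase and a long-used readout of Atf4, stood at 5.84 and 5.64, a difference of 0.19 that was below its software error. The amino acid carriers lay between −0.12 and 0.59. Slc3a2, the heavy chain shared by Slc7a5 and Slc7a11, stood at 5.79 and 5.20, a difference of 0.59, the highest of the amino acid group. Slc7a5, the light chain for large neutral amino acids, stood at 0.41 and 0.08, with probe differences of 0.27 and 0.37. Slc7a11, the light chain for cystine, stood at −1.54 and −1.42, a difference of −0.12, or 0.17 with scaling to the median. The light chains thus lay below the heavy chain in their difference, with software errors of 0.15 for Slc7a5, 0.21 for Slc7a11 and 0.20 for Slc3a2. The ranges of 1 error around Slc7a5 and Slc3a2 overlap, so the order of these genes is within the reading error.

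**Figure D2:**
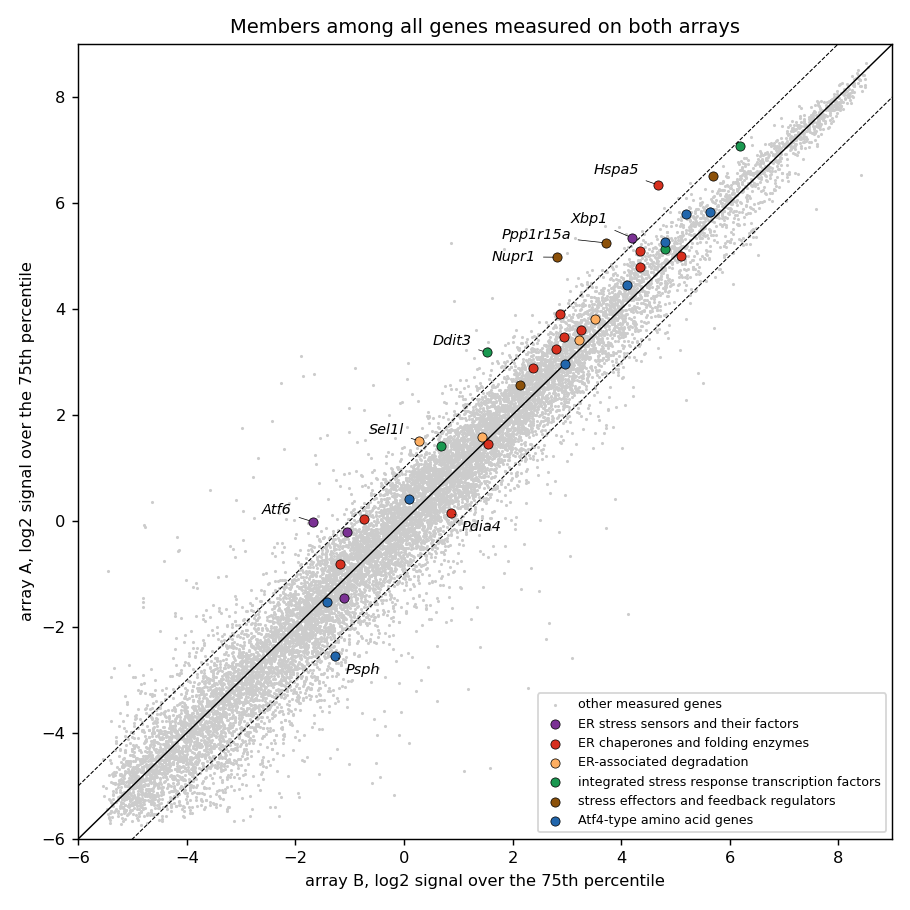
Each point is a measured gene, with its log2 signal over the 75th percentile on array B (x axis) and array A (y axis), grey for all 14816 measured genes and coloured by role for the stress genes. The solid line is equality and the dashed lines are 2-fold. Nupr1, Hspa5, Ppp1r15a, Ddit3, Atf6, Sel1l, Xbp1 and, narrowly, Manf lie above the upper dashed line and Psph lies below the lower one.

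Set side by side, the ER chaperones had a median of 0.45 (n = 13 genes) and the Atf4-type amino acid genes one of 0.26 (n = 8 genes), a difference of −0.19 for amino acid minus chaperone genes. The ranges overlapped over most of their length. Hspa5, Manf, Dnajb9 and Hsp90b1 were the 4 chaperone genes above Slc3a2, the highest amino acid gene, and Psph was the 1 amino acid gene below Pdia4, the lowest chaperone gene. In 75 of the 104 possible pairs the chaperone gene had the higher difference, 10 of the 13 chaperone genes were above the amino acid median, and 1 of the 8 amino acid genes was above the chaperone median. When degradation genes were counted with the chaperones and stress effectors with the amino acid genes, the difference of medians was −0.053. Genes of a group are not replicates of a cell line, so the contrast is a description of 1 pair of arrays with no test.

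**Figure D3:**
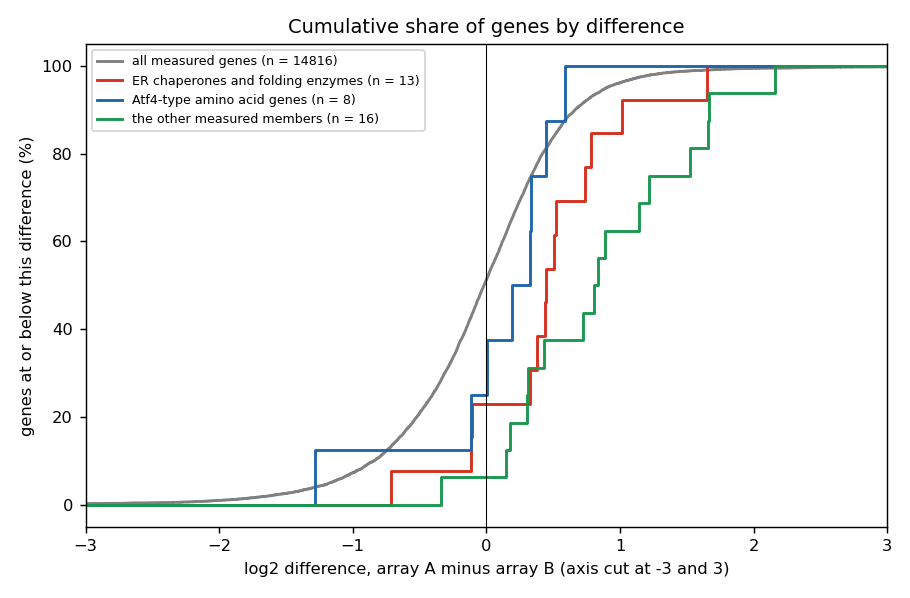
Lines give the percent of genes (y axis) at or below each log2 difference, array A minus array B (x axis), for all 14816 measured genes, the 13 chaperones and folding enzymes, the 8 amino acid genes and the other 16 measured stress genes. The chaperone line reaches 1.65 (Hspa5), the amino acid line ends at 0.59 (Slc3a2), and the line of the other stress genes ends at 2.16 (Nupr1).

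Genes with and without a match to these elements in their window overlapped in their differences. The 8 genes with an ERSE had a median of 0.41 and ran from −0.12 for Calr to 1.65 for Hspa5, and 1 of them reached 2-fold towards array A. The 5 measured genes with an Atf4 element had a median of 0.30 and ran from −0.12 for Slc7a11 to 2.16 for Nupr1, and 1 of them reached 2-fold towards array A. The 20 genes whose window held no exact match had a median of 0.48, and 4 of them reached 2-fold towards array A. Over all measured genes the share was 3.85%, and sets this small give no contrast between the kinds of window.

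**Figure D4:**
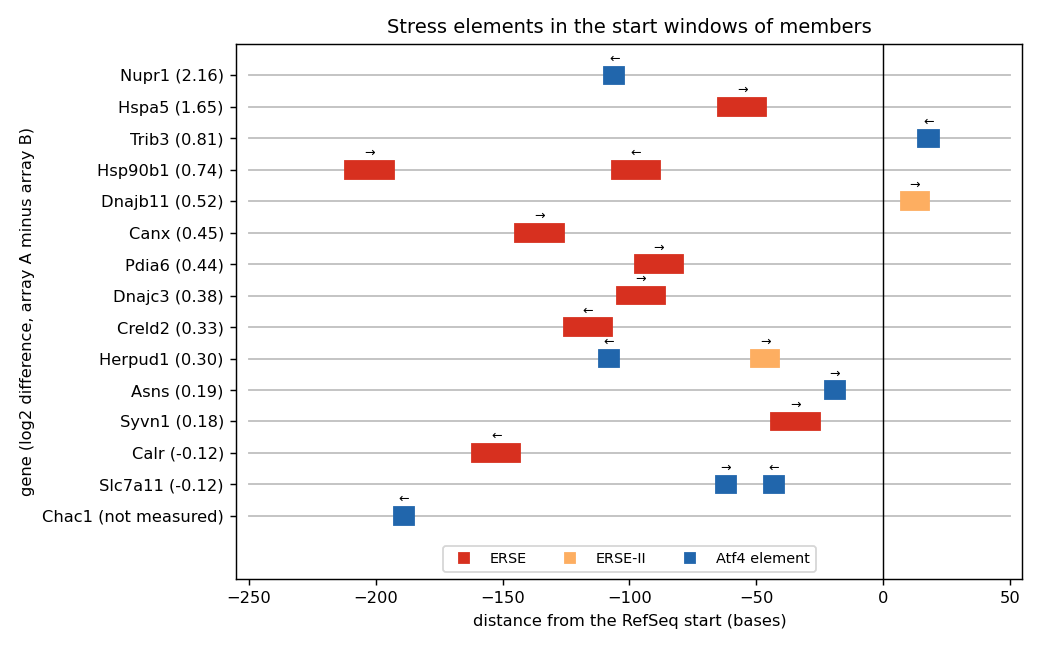
Each line is the window of 1 gene from 250 bases before to 50 bases after its RefSeq start (x axis, bases), ordered by the log2 difference in parentheses, array A minus array B, and each box is a matched element with an arrow for its strand relative to the gene. Genes with an ERSE run from 1.65 for Hspa5 to −0.12 for Calr, and genes with an Atf4 element from 2.16 for Nupr1 to −0.12 for Slc7a11.

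The stress genes are bright on this array, and the spread of all genes depends on brightness. When all measured genes were divided into 5 bins of equal size by mean level, 21 of the 37 stress genes fell in the brightest bin. There they had a median of 0.45 and 5 reached 2-fold towards array A, beside a median of 0.08 and 2.19% of all genes in that bin. The next bin held 7 stress genes with a median of 0.51, of which 2 reached 2-fold towards array A, beside 0.07 and 4.32% of all genes there. The middle bin held 4 stress genes with a median of 0.55, of which 0 reached 2-fold towards array A, beside 0.002 and 4.02% of all genes there. Of the 5 stress genes in the second dimmest bin, among them Atf6 and Psph, the median was −0.12, beside −0.10 for all genes there. In that bin 1 stress gene reached 2-fold towards array A, beside 4.66% of all genes, and the dimmest bin held 0 stress genes.

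A further 90 genes of the same pathways gave 78 measured genes with a median of 0.42. Their list was written with earlier results of these data known, so it is not an independent check. Of these, 63 were above 0, 8 (10.3%) reached 2-fold towards array A and 1 (1.28%) towards array B, beside 3.85% and 7.30% of all genes. The widest differences towards array A were 1.72 for Cth, which makes cysteine, 1.41 for Creb3, a membrane-bound relative of Atf6, 1.37 for Selenos, a selenoprotein of the degradation complex, and 1.23 for Txndc5, a disulphide isomerase. The widest towards array B were −1.87 for Gdf15, a secreted stress cytokine, −0.79 for Eif2ak1, the haem-regulated eIF2α kinase, −0.56 for Eif2ak2, the eIF2α kinase activated by double-stranded RNA, and −0.40 for Edem2, a relative of Edem1.

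By role, other genes of ER folding, translocation and degradation had a median of 0.39 (37 of 39 measured), with 34 above 0 and 4 at 2-fold or more towards array A. Other Atf4-type targets had a median of 0.54 (29 of 35 measured), with 23 above 0, 3 at 2-fold or more towards array A and 1 towards array B. Of all measured genes, 3.85% reached 2-fold towards array A and 7.30% towards array B. Other sensors, kinases and factors had a median of 0.16 (12 of 16 measured), with 6 above 0 and 6 below. Together with Eif2ak3 at −0.34, Eif2ak1 and Eif2ak2, the fourth eIF2α kinase, Eif2ak4, which senses uncharged transfer RNA, also had a difference below 0, at −0.26, which is smaller than the 0.29 that scaling to the median of each array adds. Eif2ak4 was named after its value was seen. Without a test, in this wider list the Atf4-type targets had a higher median than the ER folding genes, the reverse of the order among the chaperones and amino acid genes above.

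**Figure D5:**
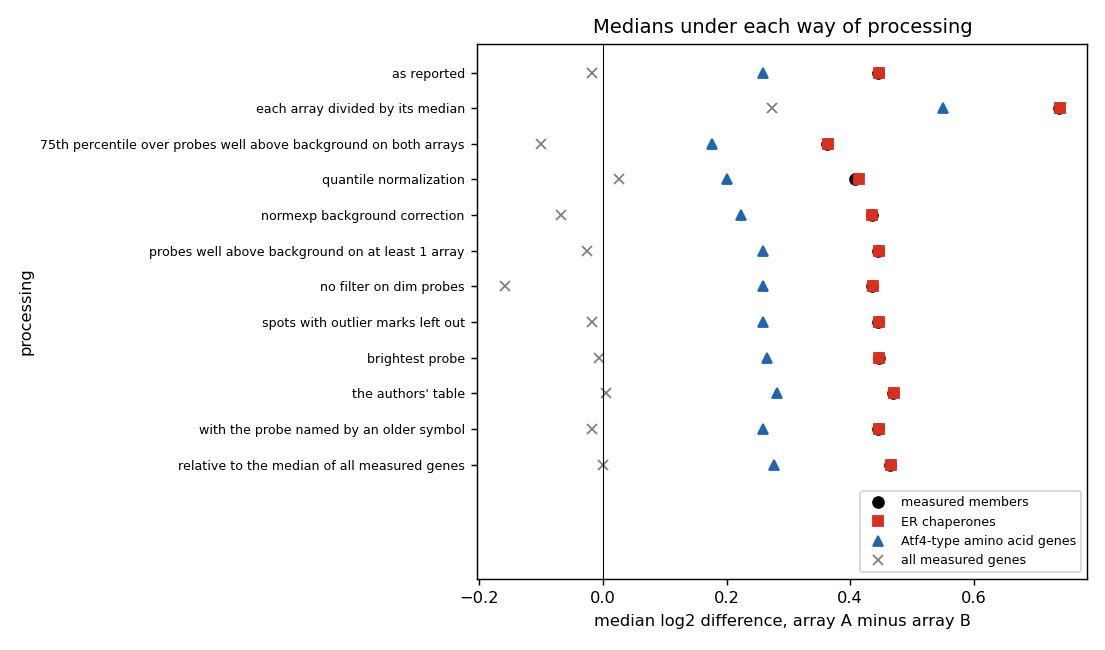
Median log2 differences, array A minus array B (x axis), of the 37 stress genes, the 13 chaperones, the 8 amino acid genes and all measured genes under each way of processing (y axis). With each array divided by its median all medians move right, to 0.74, 0.74, 0.55 and 0.27, and in each way of processing the chaperone median lies right of the amino acid median, which lies right of the median of all genes.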

How the data were processed

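For each cell line the authors amplified total RNA, coupled it to cyanine 3 and read it on 1 Agilent array of the mouse genome. The deposited scanner output holds intensity values per spot, made by the authors with Agilent Feature Extraction 9.5.1.1, which subtracted the background and gave each spot an error and marks for background, saturation and outliers. The deposited table holds log2 values, which the authors made in GeneSpring GX by raising signals under 1.0 to that value, scaling to the 75th percentile of the array and taking logarithms. The columns of that table had medians of −5.45 and −5.21 and were used for the identity of the arrays and as an alternative.

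Here, processed signals of non-control spots were divided by the 75th percentile of the array (1506 on array A, 1080 on array B) and put on a log2 scale, spots of a probe were averaged, and a gene took the mean over its probes well above background on both arrays. No spot was below 1.0. The 75th percentile follows the methods of the study. Members were taken by the gene name in the scanner output, and other genes were named through the RefSeq table of GRCm38.p6, by accession where it held 1. Probe coordinates are those of the scanner output, in mm9, and where a probe lies within its transcript was not analysed here. The members and lists were chosen with earlier results of these data known. All 38 members are described, and of the other pathway genes the counts by role and the 4 widest differences in each direction. With 1 array per group no test was run and 2-fold is a size. Over 211 probes printed at 10 spots, all well above background, the log2 signal had a median SD between spots of 0.06 (array A) and 0.05 (array B). With so few arrays, their number limits the precision.

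The alternatives were other scalings (the median, the 75th percentile over the measured probes alone, quantiles), normexp with an offset of 50, looser filters on dim probes, spots with outlier marks left out, the brightest probe of a gene, the values of the authors' table, a 3-fold threshold and wider groups. Centring on the median of all genes and a probe tied to Syvn1 by an older symbol were added after seeing the data. The steps were tested on simulated data. Quantile scaling and normexp used limma 3.58.1 in R 4.3.3, and all else used Python 3.11.15 (numpy 2.4.6, pandas 2.3.3, matplotlib 3.10.9).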

Additional observations from a re-analysis of the deposited data

How the results depend on the processing

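Scaling to the median of each array raised every difference by 0.29. The medians were then 0.74 for the 37 stress genes, 0.74 for the chaperones and 0.55 for the amino acid genes, with 14 stress genes past 2-fold towards array A and 0 towards array B. Over all genes the share of 2-fold differences that were higher on array A was then 69.1%, in place of 34.5%, with 8.86% of all genes past 2-fold towards array A and 3.96% towards array B. Taking the 75th percentile over the probes measured on both arrays gave medians of 0.36, 0.36 and 0.18. At 3-fold, 4 stress genes were higher on array A (Nupr1, Atf6, Ddit3 and Hspa5) and 0 on array B, beside 1.05% and 2.25% of all genes. With the wider groups the amino acid minus chaperone median was −0.053. Of the 37 genes, 32 kept their sign in all 10 alternatives run gene by gene. The exceptions were Calr (−0.21 to 0.18), Sdf2l1 (−0.19 to 0.18), Psat1 (−0.08 to 0.29), Slc7a11 (−0.20 to 0.17) and Syvn1, at −0.39 with the dim probe tied to it by an older symbol. Of the 9 genes at least 2-fold apart, 7 stayed so in all 10. Manf was lowest at 0.93, short of 2-fold in 2 of them, and Psph was at −0.99 with median scaling. No paired analysis was possible because there is 1 array per cell line, and leaving out a replicate was not possible for the same reason. The causes of these shifts were not tested. The number of arrays and the unsettled assignment, which turns every sign, limit all values. The median SDs between repeated spots of the 2 arrays, combined as if independent, came to 0.08 for a difference.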
